A study of Mus musculus with 2 samples.

Results

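The CCN proteins and the Hippo pathway were followed here through 10 transcripts. They are Cyr61, Ctgf, Nov, Wisp1 and Wisp2, which encode secreted CCN proteins, and Stk3, Stk4, Lats2, Yap1 and Wwtr1, which encode kinases and coactivators of the Hippo pathway. They were found by gene symbol, 10 of the 31053 genes in the count matrices, and were selected on their levels and KI to WT differences per cell class in these same libraries. The values below therefore describe the libraries and test nothing.

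A droplet library from lungs of p47phox-KI mice was set beside one from wild-type (WT) mice. Mice of both libraries were C57BL/6, and acute lung injury is the stated condition of each. p47phox is the product of Ncf1, a subunit of the phagocyte NADPH oxidase. What the knock-in allele changes, the injuring agent, the number and sex of animals in a library and the sort gate are not given in the sources used here, and CD45.2, a leukocyte antigen, was stained before the sort. With 1 library per genotype there is no replicate check, so genotype cannot be told apart from animal, library or sort, and every interval covers counting error only.

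The KI library held 43445797 UMIs in 9120 barcodes and the WT library 43376713 UMIs in 10473 barcodes, and 30 barcode sequences occurred in both. After the filters 6636 KI and 7735 WT cells remained, with medians of 3774.5 and 3307 UMIs. Cells were clustered without the 10 transcripts and named by marker genes, and the suffix -like marks a name that rests on markers alone. The classes compared were endothelial-like (3535 KI and 4324 WT cells), fibroblast-like (1186 KI and 1414 WT), type 2 alveolar-like (569 KI and 455 WT), pericyte-like (403 KI and 378 WT), type 1 alveolar-like (255 KI and 433 WT) and smooth muscle-like cells (129 KI and 122 WT). Ncf1 transcript was present in both libraries, with 213 KI and 228 WT UMIs over all barcodes (4.90 and 5.26 CPM). A 3′ tag cannot show the allele, so this does not check the genotype labels.

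The Hippo pathway is a kinase cascade that restrains growth. MST kinases (Stk4 encodes MST1, Stk3 encodes MST2) activate LATS kinases, and LATS kinases phosphorylate YAP (Yap1) and TAZ (Wwtr1), which keeps these coactivators out of the nucleus. In the nucleus YAP and TAZ bind TEAD factors and drive target genes, of which Cyr61 and Ctgf are the most widely used readouts. CCN proteins are matricellular proteins: they bind integrins and proteoglycans in the matrix and act on adhesion, repair and fibrosis. In the lung, YAP and TAZ are known for their roles in alveolar epithelial repair and in vessel growth. Activity of YAP and TAZ is set largely by phosphorylation, which transcript counts do not measure.

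The promoters of a target gene and of a kinase are shown because the ratios of Cyr61 in fibroblast-like and of Stk4 in endothelial-like cells recur below. RefSeq promoter windows (GRCm38.p6, 250 bases before to 50 after the start) were at hand for 5 of the 10 genes, namely Cyr61, Stk4, Lats2, Yap1 and Wwtr1. Capitals mark the TEAD core motif GGAATG, searched on both strands (CATTCC is the same motif read on the other strand). The Cyr61 window is chr3:145649936-145650235, minus strand, and the Stk4 window is chr2:164073888-164074187, plus strand, printed 5′ to 3′ along the gene.
Cyr61: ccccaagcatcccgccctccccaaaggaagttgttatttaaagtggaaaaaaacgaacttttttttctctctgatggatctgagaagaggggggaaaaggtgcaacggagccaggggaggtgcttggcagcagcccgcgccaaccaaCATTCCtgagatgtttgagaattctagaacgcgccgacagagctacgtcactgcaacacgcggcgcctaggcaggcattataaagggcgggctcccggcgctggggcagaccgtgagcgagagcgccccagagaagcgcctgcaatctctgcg
Stk4: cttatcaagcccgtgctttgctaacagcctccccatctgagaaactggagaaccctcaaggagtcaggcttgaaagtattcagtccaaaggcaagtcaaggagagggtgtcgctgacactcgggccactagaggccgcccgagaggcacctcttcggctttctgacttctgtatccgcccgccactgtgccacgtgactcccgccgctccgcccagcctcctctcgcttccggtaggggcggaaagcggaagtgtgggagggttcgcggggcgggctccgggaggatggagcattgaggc
The Cyr61 motif lay at positions −103 to −98 from the start site, and the Stk4 window held none. Yap1 had the motif at −141 to −136, and Lats2 at 5 to 10 in the first of 2 windows. The 2 windows of Wwtr1 overlap and share a single motif, at −136 to −131 from one start site and at −170 to −165 from the other. Over all RefSeq mouse windows of this length 4817 of 32851 (14.7%) held it on either strand. None of the members' windows held the AP-1 motif TGACTCA (5.20% of all windows), the cAMP response element TGACGTCA (1.79%) or a CArG box (1.63%). A match is a description of letters, not a site shown to be bound.

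Levels are given as CPM, a gene's UMIs per 1000000 UMIs of the cells summed. Differences are log2 ratios of KI over WT CPM with exact 95% counting intervals. A transcript was read as free RNA where its level in a class lay over 20 times below that of another class in the same library. The CCN transcripts differed widely between cell classes, and the Hippo transcripts much less, as the plot of levels by class shows.

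**Figure D1:**
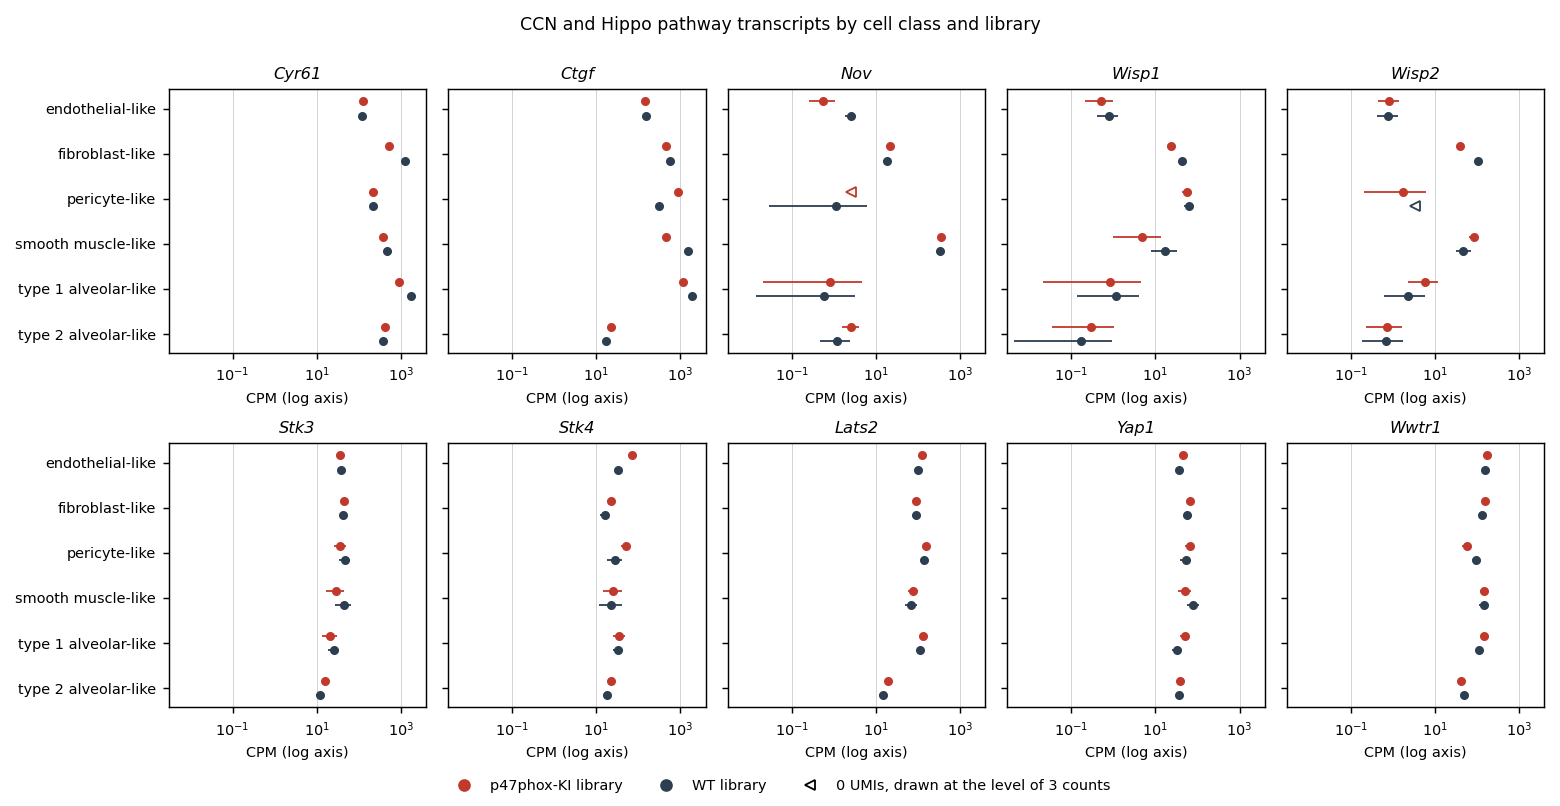
CPM (log axis) of each transcript in 6 cell classes, with the KI library drawn above the WT library in each row; bars are exact 95% Poisson intervals and open triangles mark 0 UMIs at the level of 3 counts. Cyr61 and Ctgf were highest in type 1 alveolar-like cells of both libraries, Nov in smooth muscle-like cells and Wisp1 in pericyte-like cells. For Wisp1 in WT the interval overlapped that of fibroblast-like cells.

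Cyr61 (ENSMUSG00000028195, chromosome 3, 145646976 to 145649981, minus strand, GRCm38) encodes CCN1, an integrin ligand induced rapidly by stretch and growth factors. It was highest in type 1 alveolar-like cells, at 914 CPM in KI and 1689 CPM in WT. Fibroblast-like cells came next in both libraries, with 509 CPM in KI and 1254 CPM in WT. In KI, fibroblast-like cells, Hhip stromal-like cells (423 CPM) and type 2 alveolar-like cells (408 CPM) followed each other with overlapping intervals. In WT, fibroblast-like cells stood clear of the next class, Hhip stromal-like cells at 637 CPM. Endothelial-like cells were lowest, at 124 CPM in KI and 117 CPM in WT.

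Ctgf (ENSMUSG00000019997, chromosome 10, 24595442 to 24598683, plus strand) encodes CCN2, known from fibrosis and matrix remodelling. It too was highest in type 1 alveolar-like cells, at 1129 CPM in KI and 1853 CPM in WT. The class after it differed between the libraries. In KI it was pericyte-like cells, with 878 CPM, ahead of smooth muscle-like cells at 458 CPM and fibroblast-like cells at 443 CPM, whose intervals overlapped. In WT it was smooth muscle-like cells, with 1492 CPM, ahead of fibroblast-like cells at 575 CPM and pericyte-like cells at 317 CPM. Type 2 alveolar-like cells held 22.5 CPM in KI and 17.3 CPM in WT, a free-RNA level.

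The other CCN transcripts were lower and each was highest in a mesenchymal class. Nov (ENSMUSG00000037362, chromosome 15, 54745702 to 54754039), which encodes CCN3, was found at 356 CPM in KI and 339 CPM in WT smooth muscle-like cells. Its next class in KI was fibroblast-like cells, at 21.7 CPM, and in WT Hhip stromal-like cells, at 81.6 CPM. Wisp1 (ENSMUSG00000005124, chromosome 15, 66891320 to 66923201), which encodes CCN4, was highest in pericyte-like cells (56.2 CPM in KI, 62.2 CPM in WT), with fibroblast-like cells next (22.9 CPM in KI, 43.7 CPM in WT). In WT the intervals of these classes overlapped. Wisp2 (ENSMUSG00000027656, chromosome 2, 163820861 to 163833146), which encodes CCN5, a family member without the C-terminal domain, changed its order: smooth muscle-like cells led in KI (84.4 CPM against 38.4 CPM in fibroblast-like cells), while fibroblast-like cells led in WT (104 CPM against 47.6 CPM in smooth muscle-like cells). Wisp3, the remaining CCN gene, had 3 KI and 2 WT UMIs in endothelial-like cells and was not measured in any class.

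Among the Hippo transcripts, Stk4 (ENSMUSG00000018209, chromosome 2, 164070322 to 164155524) ranged over the 6 classes from 21.9 to 71.5 CPM in KI and from 15.7 to 32.6 CPM in WT. Endothelial-like cells were highest in both, clear of the next class in KI but not in WT. T or natural killer-like cells, too few to compare, held 173 CPM in KI and 156 CPM in WT. Stk3 (ENSMUSG00000022329, chromosome 15, 34875496 to 35178921) ranged from 15.9 to 43.2 CPM in KI and from 12.1 to 46.7 CPM in WT, lowest in type 2 alveolar-like cells. Lats2 (ENSMUSG00000021959, chromosome 14, 57689662 to 57758388) was highest in pericyte-like cells (158 CPM in KI, 142 CPM in WT) and lowest in type 2 alveolar-like cells (19.3 CPM in KI, 14.95 CPM in WT). In both libraries its pericyte-like interval overlapped that of type 1 alveolar-like cells. Yap1 (ENSMUSG00000053110, chromosome 9, 7931999 to 8004596) lay between 39.0 and 66.8 CPM in KI and between 32.5 and 80.0 CPM in WT, and most neighbouring classes overlapped. Wwtr1 (ENSMUSG00000027803, chromosome 3, 57455649 to 57575910) was lowest in type 2 alveolar-like cells (41.7 CPM in KI, 49.1 CPM in WT) and next lowest in pericyte-like cells (56.2 CPM in KI, 95.6 CPM in WT). Lats2 overlaps the gene model Gm49361 on the same strand, which had 0 UMIs in both libraries, and Stk4 overlaps Tomm34 on the other strand and Gm11455. Whether the counting used strand is not given in the sources used here, so both Lats2 and Stk4 may hold reads of a neighbour. The overlap of Stk4 with Tomm34 (164070322 to 164071169) lies at the 5′ ends of both genes, while the tags are taken from 3′ ends. Tomm34 had 38.8 CPM in KI and 48.1 CPM in WT endothelial-like cells, and Gm11455 had 6 KI and 2 WT UMIs there.

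**Figure D2:**
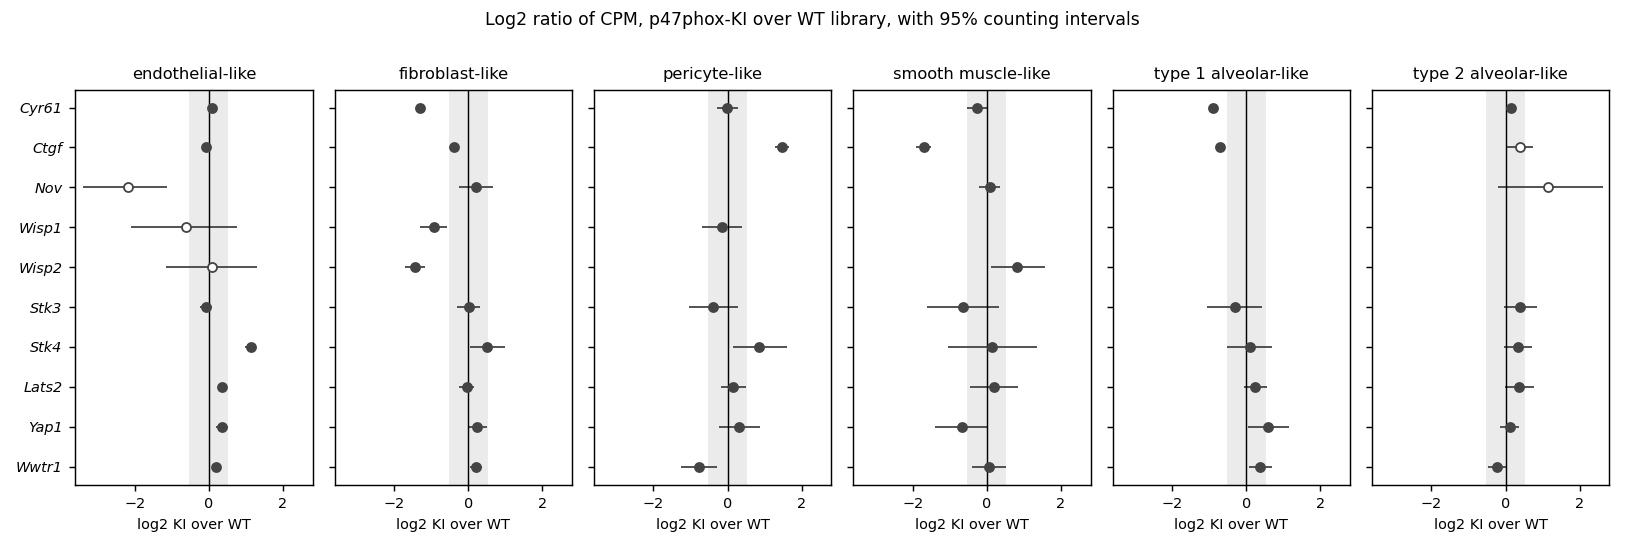
Log2 ratio of CPM, KI over WT, for transcripts with at least 20 UMIs over both libraries in a class; bars are exact 95% counting intervals, the grey band spans −0.5 to 0.5 and open circles are at a free-RNA level in both libraries. Ctgf lies right of the band in pericyte-like cells (1.47) and left of it in smooth muscle-like cells (−1.70).

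In endothelial-like cells the kinase transcript Stk4 was higher in KI, while the target transcripts Cyr61 and Ctgf were not past 0.5. Of the 10 members, 3 had a ratio past 0.5 in either direction, 1 higher and 2 lower. Over the 13069 genes tested in this class the share past 0.5 was 18.4% in either direction (12.1% higher in KI, 6.26% lower in KI). Since these ratios were known when the members were chosen, nothing is read from that share. Stk4 had 1138 UMIs (71.5 CPM) in KI and 548 UMIs (32.6 CPM) in WT. Its log2 ratio was 1.13 [0.98, 1.28]. The others past 0.5 were Nov, with 9 KI and 43 WT UMIs, and Wisp1, with 8 KI and 13 WT UMIs, both at free-RNA level.

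The other endothelial members lay closer to 0. Lats2 had 125 CPM in KI and 97.7 CPM in WT, a ratio of 0.36 [0.26, 0.45]. Yap1 had 45.2 CPM in KI and 35.5 CPM in WT, a ratio of 0.35 [0.19, 0.51]. Wwtr1 had 177 CPM in KI and 155 CPM in WT, a ratio of 0.19 [0.11, 0.27]. All 3 were higher in KI with intervals above 0. Cyr61 (0.09 [−0.00, 0.18]), Ctgf (−0.07 [−0.15, 0.01]) and Stk3 (−0.08 [−0.25, 0.08]) had intervals that reach 0. The median of all genes tested in this class was 0.06.

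The Stk4 ratio was not alike in every kind of endothelial-like cell. In general capillary-like cells, a progenitor population of the alveolar capillary, Stk4 had 121 CPM in KI and 51.4 CPM in WT, a ratio of 1.23 [1.03, 1.44]. In aerocyte-like cells, which are specialised for gas exchange, it had 24.2 CPM in KI and 17.5 CPM in WT, a ratio of 0.47 [0.12, 0.83]. Those intervals do not overlap, but they cover counting error only and the difference was not tested. Arterial-like cells had 101 CPM in KI and 43.1 CPM in WT (1.23 [0.73, 1.74]), and venous-like cells had 45.6 CPM in KI and 18.5 CPM in WT (1.30 [0.51, 2.16]). Cluster 5, led by Tmem252, Adamts9 and Inhbb and given no subclass, had 94.8 CPM in KI and 31.7 CPM in WT (1.58 [1.17, 2.00]). Stk4 was thus higher in KI in each of these subclasses, and aerocyte-like cells had the lowest level of the 5 in both libraries, though in WT close to venous-like cells.

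After every cell was thinned to 2000 UMIs, 13.4% of 2892 KI and 6.89% of 3440 WT endothelial-like cells held a Stk4 UMI (22.9% and 10.8% unthinned, at medians of 4059 and 3544 UMIs); 643 KI and 884 WT cells were too shallow and left out. In general capillary-like cells the thinned shares were 21.3% in KI and 11.5% in WT (37.6% and 17.3% unthinned). No class in these data lacks Stk4, so no background share can be given for it. In the barcodes that the filters left out, Stk4 had 48.2 CPM in KI and 28.7 CPM in WT, a ratio of 0.75 [0.53, 0.96]. Red cell markers had 262 CPM in KI and 37.4 CPM in WT endothelial-like cells, type 2 alveolar markers 1038 CPM in KI and 613 CPM in WT. Without cells that held a red cell marker UMI the Stk4 ratio in general capillary-like cells was 1.22.

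Ctgf split by vessel type where the class as a whole showed little. General capillary-like cells had 139 CPM in KI and 204 CPM in WT, a ratio of −0.55 [−0.69, −0.42]. Aerocyte-like cells had 67.3 CPM in KI and 89.1 CPM in WT, a ratio of −0.41 [−0.59, −0.23]. Venous-like cells had 572 CPM in KI and 309 CPM in WT, a ratio of 0.89 [0.69, 1.09]. Arterial-like cells had 87.1 CPM in KI and 52.9 CPM in WT, a ratio of 0.72 [0.24, 1.21]. General capillary-like cells were thus lower and venous-like cells higher in KI, a difference that was not tested. For aerocyte-like and arterial-like cells the WT levels were free-RNA levels, beside the 1853 CPM of WT type 1 alveolar-like cells. The arterial ratio also rests on few cells. In KI 11 of 211 arterial-like cells held 57.8% of the Ctgf UMIs, and the most in any cell was 18. In WT 15 of 286 held 46.2%, and the most in any cell was 5. After thinning 42.9% of KI and 36.7% of WT venous-like cells held a Ctgf UMI (58.9% and 48.5% unthinned), with overlapping intervals. In arterial-like cells the shares were 10.1% in KI and 10.3% in WT (20.9% and 17.5% unthinned). With coarser clustering the venous ratio was 0.25, and with finer clustering the arterial ratio was 0.25.

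**Figure D3:**
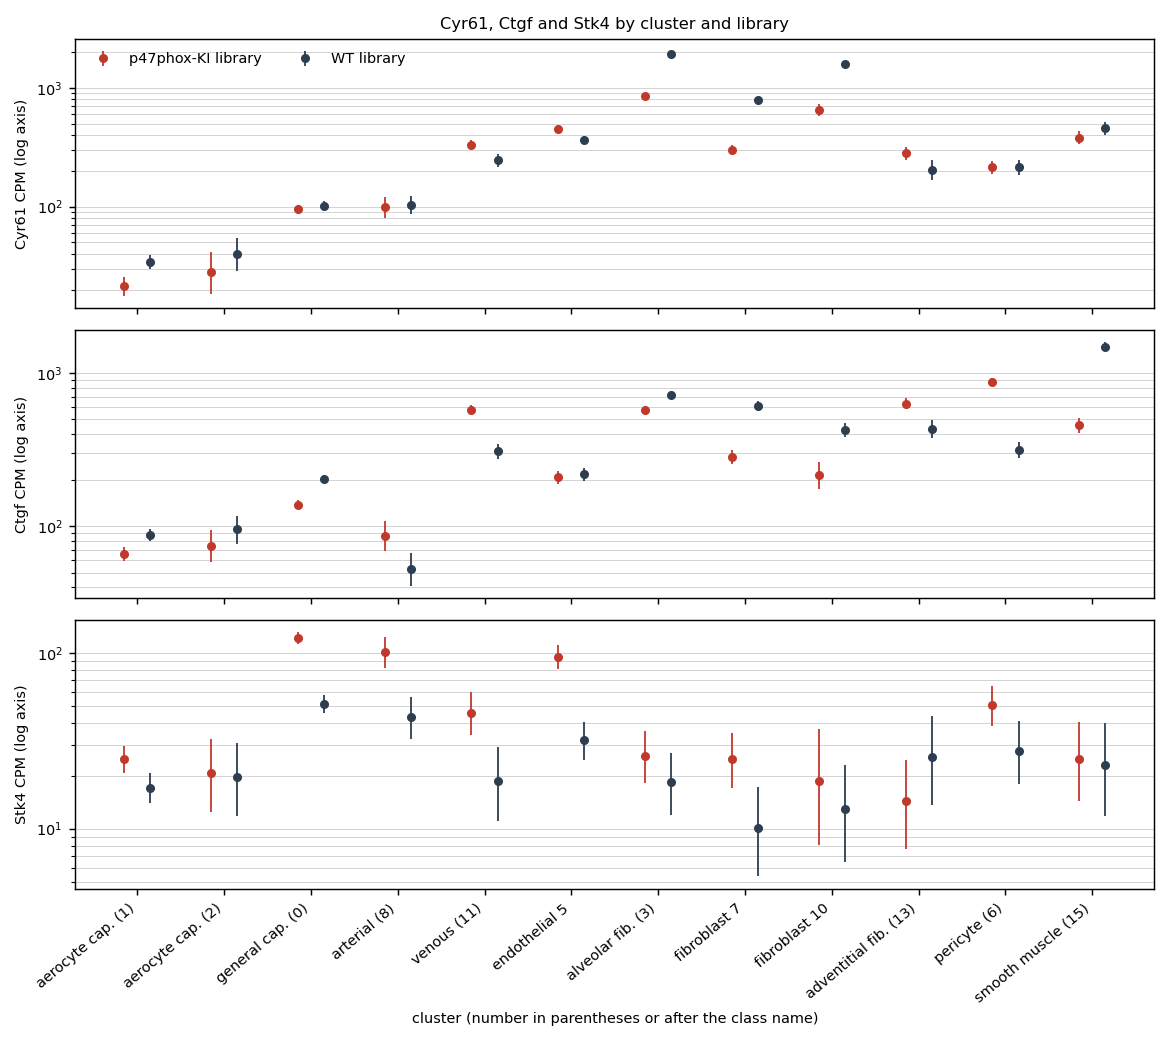
CPM (log axis) of Cyr61, Ctgf and Stk4 in 12 endothelial, fibroblast and mural clusters, with KI left of WT and exact 95% Poisson intervals. Stk4 was 121 CPM in KI and 51.4 CPM in WT in general capillary-like cells, and Cyr61 was lower in KI in alveolar fibroblast-like cells (855 CPM, against 1943 CPM in WT).

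In fibroblast-like cells 3 CCN transcripts were lower in KI, and the Hippo transcripts other than Stk4 lay near 0 or slightly above it. Of the 10 members, 4 were past 0.5, 1 higher and 3 lower. Over 11828 genes tested the share was 25.6% in either direction (18% higher in KI, 7.55% lower in KI), and again nothing is read from the share. Cyr61 had 2136 UMIs (509 CPM) in KI and 5279 UMIs (1254 CPM) in WT, a ratio of −1.30 [−1.37, −1.23]. Wisp2 had 161 UMIs (38.4 CPM) in KI and 438 UMIs (104 CPM) in WT, a ratio of −1.44 [−1.71, −1.17]. Wisp1 had 96 UMIs (22.9 CPM) in KI and 184 UMIs (43.7 CPM) in WT, a ratio of −0.93 [−1.30, −0.57]. Ctgf was lower by less, with 443 CPM in KI and 575 CPM in WT (−0.38 [−0.46, −0.29]). Stk4 had 22.4 CPM in KI and 15.7 CPM in WT, a ratio of 0.52 [0.05, 0.99]. Stk3 (0.01), Lats2 (−0.04), Yap1 (0.24), Nov (0.21) and Wwtr1 (0.20) were within 0.5 of 0.

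The share of fibroblast-like cells with a Cyr61 UMI showed the same direction. It was 33.6% in KI and 65.0% in WT after thinning (36.5% and 66.5% unthinned, at medians of 2773 and 2366 UMIs), with 425 KI and 608 WT cells too shallow for thinning. A Wisp2 UMI was found in 6.96% of KI and 17.0% of WT thinned cells (9.11% and 19.2% unthinned). T or natural killer-like cells, which are not known to make either, held a Cyr61 UMI in 2 of 40 KI and 1 of 51 WT cells and a Wisp2 UMI in 1 KI and 0 WT cells, at medians of 3630.5 and 3221 UMIs.

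The Cyr61 difference was present in 4 of the 5 fibroblast clusters. Alveolar fibroblast-like cells had 855 CPM in KI and 1943 CPM in WT (−1.18 [−1.28, −1.09]). Cluster 7, led by Rbp4 and Mmp2, had 300 CPM in KI and 791 CPM in WT (−1.40 [−1.57, −1.23]). Cluster 10, led by Slc39a14 and holding Thbs1 and Tnc among its leading genes, had 654 CPM in KI and 1591 CPM in WT (−1.28 [−1.47, −1.10]). Cluster 16, led by Lrat and of low depth, had a ratio of −1.51 [−2.43, −0.66]. Adventitial-like cells had 281 CPM in KI and 205 CPM in WT (0.45 [0.12, 0.80]), but only 175 KI and 98 WT cells carried that name, and other clusterings that drew it wider gave −1.16 at the lowest.

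Wisp2 was lower in KI in both named kinds of fibroblast. Alveolar fibroblast-like cells had 58.4 CPM in KI and 176 CPM in WT (−1.59 [−1.97, −1.23]), and adventitial-like cells had 11.1 CPM in KI and 57.3 CPM in WT (−2.37 [−3.57, −1.29]). The adventitial ratio rests on few UMIs. In WT 11.2% of 98 adventitial-like cells held a Wisp2 UMI, 5 cells held 79.3% of the UMIs, and the most in any cell was 12. As for Cyr61, that name covered few cells and was drawn wider by other clusterings. Wisp1 came mainly from cluster 7, with 27.0 CPM in KI and 68.8 CPM in WT (−1.35 [−1.95, −0.77]), and from cluster 10, with 105 CPM in KI and 91.2 CPM in WT (0.20 [−0.36, 0.75]). Cluster 10 made up 125 of the KI and 296 of the WT fibroblast-like cells. With both libraries given the same cluster weights the Wisp1 ratio of the class was −0.58 and that of Cyr61 −1.16.

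Beside these ratios, the 6 red cell markers summed to 2836 CPM in KI and 4.28 CPM in WT fibroblast-like cells, and the 7 airway secretory markers to 264 CPM in KI and 1648 CPM in WT. Red cell markers at 0 numbered 1 in KI and 2 in WT. The part of those cells' RNA in the ratios was not tested as such, but without cells that held a red cell marker UMI the alveolar fibroblast-like ratio of Cyr61 was −1.19 and of Wisp2 −1.47.

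The mural classes differed in the direction of Ctgf. Pericyte-like cells, the contractile cells of capillaries, had 1030 Ctgf UMIs (878 CPM) in KI and 285 UMIs (317 CPM) in WT, a ratio of 1.47 [1.28, 1.66]. After thinning 58.8% of 296 KI and 32.2% of 227 WT pericyte-like cells held a Ctgf UMI (60.5% and 33.9% unthinned, at medians of 2745 and 2224.5 UMIs). T or natural killer-like cells held one in 2 of 40 KI and 4 of 51 WT cells. Smooth muscle-like cells had 293 Ctgf UMIs (458 CPM) in KI and 783 UMIs (1492 CPM) in WT, a ratio of −1.70 [−1.90, −1.51]. There the thinned shares were 31.5% in KI and 47.5% in WT (40.3% and 52.5% unthinned), and the 7 cells with the most Ctgf held 53.6% of the UMIs in KI and 50.3% in WT.

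In pericyte-like cells 8 of the 10 members were measured (Nov and Wisp2 had too few UMIs), and 3 of the 8 were past 0.5, 2 higher and 1 lower. Over 8818 genes tested the share was 23.7% in either direction (12.8% higher in KI, 10.9% lower in KI). Besides Ctgf they were Stk4, with 50.3 CPM in KI and 27.8 CPM in WT (0.86 [0.16, 1.59]), and Wwtr1, with 56.2 CPM in KI and 95.6 CPM in WT (−0.77 [−1.25, −0.29]). Cyr61 did not differ in the same way as Ctgf, with 215 CPM in KI and 216 CPM in WT (−0.01 [−0.28, 0.27]). Wisp1 had 56.2 CPM in KI and 62.2 CPM in WT (−0.15 [−0.68, 0.39]). Stk3 (−0.38), Lats2 (0.16) and Yap1 (0.31) had intervals that include 0. Where barcodes marked as doublets were kept, the class grew to 720 KI and 686 WT cells, the Ctgf ratio was 0.74 and the Wwtr1 ratio −0.10. Smooth muscle markers summed to 950 CPM in KI and 955 CPM in WT pericyte-like cells, and red cell markers to 1028 CPM in KI and 4.45 CPM in WT. Their part in the ratios was not tested as such, but Ctgf, Stk4 and Wwtr1 kept their sign in every alternative that could be run. These alternatives included leaving out cells that held a red cell marker UMI.

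In smooth muscle-like cells 9 of the 10 members were measured (Wisp1 had too few UMIs), and 4 of the 9 were past 0.5, 1 higher and 3 lower. Over 7203 genes tested the share was 30.8% in either direction (20.3% higher in KI, 10.5% lower in KI). Besides Ctgf they were Wisp2, with 54 UMIs (84.4 CPM) in KI and 25 UMIs (47.6 CPM) in WT (0.83 [0.12, 1.57]), Yap1, with 32 UMIs in KI and 42 UMIs in WT (−0.68 [−1.39, 0.02]), and Stk3, with 28.1 CPM in KI and 43.8 CPM in WT (−0.64 [−1.62, 0.31]). The intervals of Yap1 and Stk3 include 0. The Wisp2 ratio rests on few cells: 7 of 129 KI cells held 66.7% of its UMIs, and 7 of 122 WT cells held 72%. A Wisp2 UMI was found in 14.0% of KI and 11.5% of WT smooth muscle-like cells, unthinned. Nov, the transcript most typical of this class, had 356 CPM in KI and 339 CPM in WT (0.07 [−0.22, 0.36]). Cyr61 had 381 CPM in KI and 457 CPM in WT (−0.26 [−0.53, 0.00]). Type 2 alveolar markers summed to 591 CPM in KI and 3122 CPM in WT smooth muscle-like cells, and fibroblast markers to 5727 CPM in KI and 4553 CPM in WT. Their part in the ratios was not tested as such, but Ctgf and Wisp2 kept their sign in every alternative that could be run. These alternatives included leaving out the 25% of cells richest in other cells' markers.

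**Figure D4:**
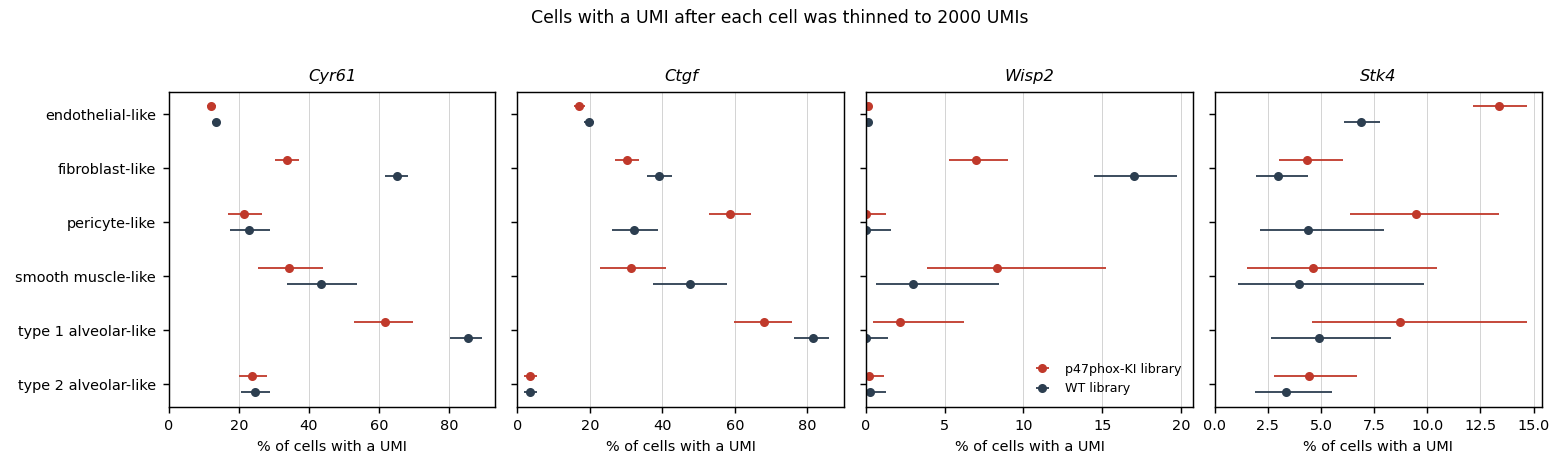
Percent of cells with a UMI of Cyr61, Ctgf, Wisp2 or Stk4 after thinning each cell to 2000 UMIs, with KI drawn above WT and exact 95% binomial intervals; each panel has its own axis from 0. Cyr61 was found in 33.6% of KI and 65.0% of WT fibroblast-like cells, and Ctgf in 58.8% of KI and 32.2% of WT pericyte-like cells.

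Type 1 alveolar-like cells, the thin epithelium of gas exchange, had less Cyr61 and Ctgf in KI. Of the 10 members 7 were measured (Nov, Wisp1 and Wisp2 had too few UMIs), and 3 of the 7 were past 0.5, 1 higher and 2 lower. Over 9387 genes tested the share was 31.7% in either direction (21.3% higher in KI, 10.5% lower in KI). Cyr61 had 1097 UMIs (914 CPM) in KI and 2958 UMIs (1689 CPM) in WT, a ratio of −0.89 [−0.99, −0.78]. Ctgf had 1354 UMIs (1129 CPM) in KI and 3245 UMIs (1853 CPM) in WT, a ratio of −0.72 [−0.81, −0.62]. Yap1 had 49.2 CPM in KI and 32.5 CPM in WT, a ratio of 0.60 [0.05, 1.15], and Wwtr1 had 147 CPM in KI and 112 CPM in WT, a ratio of 0.38 [0.08, 0.68]. Stk4 (0.11), Stk3 (−0.30) and Lats2 (0.24) had intervals that include 0. Thinned shares were 61.6% in KI and 85.2% in WT for Cyr61 (60.8% and 73.9% unthinned), and 68.1% in KI and 81.4% in WT for Ctgf (56.9% and 69.3% unthinned); 117 KI and 169 WT cells were too shallow for this.

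Markers of other cells were higher in the KI library of this class. Endothelial markers summed to 2339 CPM in KI and 976 CPM in WT, with 10 of 10 higher in KI. Fibroblast markers summed to 2682 CPM in KI and 1374 CPM in WT, also 10 of 10. Type 2 alveolar markers summed to 5276 CPM in KI and 1157 CPM in WT, with 8 of 9 higher. Red cell markers went the other way, at 148 CPM in KI and 1754 CPM in WT. Without the 25% of cells richest in such markers the Cyr61 ratio was −0.55, while Ctgf, at −0.37, and Yap1, at 0.36, were no longer past 0.5. Under a stricter cell filter (at least 500 genes and at most 5% mitochondrial UMIs) the Ctgf ratio was −0.28 and that of Yap1 0.38, and 121 KI and 231 WT cells were left.

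In type 2 alveolar-like cells, the surfactant-making epithelium, the members differed little. Only Nov was past 0.5, with 18 KI and 7 WT UMIs at a free-RNA level, so 1 of 8 measured members was counted. Over 11497 genes tested the share was 19.3% in either direction (15.1% higher in KI, 4.25% lower in KI). Cyr61 had 408 CPM in KI and 369 CPM in WT (0.14 [0.06, 0.23]). Yap1 had 39.0 CPM in KI and 36.1 CPM in WT (0.11 [−0.15, 0.37]), and Wwtr1 had 41.7 CPM in KI and 49.1 CPM in WT (−0.23 [−0.47, 0.01]). Stk3, Stk4 and Lats2 had ratios of 0.40, 0.33 and 0.37 with intervals that include 0. This class held 12930 UMIs per cell in KI and 12881 in WT at the median, more than any other class compared.

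The rest of the pathway was read from lists of genes. The Hippo core list holds 8 kinases and adaptors, all measured in each of the 6 classes. In endothelial-like and fibroblast-like cells 1 of 8 was past 0.5, which was Stk4, with list medians of 0.08 and −0.02 (all genes: 0.06 and 0.09). The scaffold Sav1, which holds MST and LATS kinases together, had 164 CPM in KI and 166 CPM in WT endothelial-like cells (−0.02 [−0.10, 0.06]), and 177 CPM in KI and 236 CPM in WT fibroblast-like cells (−0.42 [−0.56, −0.28]). Lats1, the partner kinase of Lats2, had 41.0 CPM in KI and 42.3 CPM in WT endothelial-like cells (−0.04 [−0.20, 0.11]). Of 28 upstream regulators, 5 were higher and 2 lower in endothelial-like cells, among them the FERM protein Frmd6 (197 CPM in KI, 129 CPM in WT, 0.61 [0.54, 0.69]), the phosphatase Ptpn14 (82.5 CPM in KI, 53.7 CPM in WT, 0.62 [0.49, 0.74]) and the atypical cadherin Fat4 (9.48 CPM in KI, 14.8 CPM in WT, −0.64 [−0.94, −0.34]). In fibroblast-like cells 3 of 27 were higher and 1 lower, the lower being the MST-binding Rassf1 (103 CPM in KI, 175 CPM in WT, −0.76 [−0.93, −0.58]). Over all genes tested, 12.1% were higher and 6.26% lower in endothelial-like cells, and 18% higher and 7.55% lower in fibroblast-like cells. Nothing is read from the counts of these lists.

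TEAD factors are the DNA-binding partners of YAP and TAZ. Of the 9 genes listed for YAP, TAZ and their TEAD partners, 1 of 8 measured was higher and 1 lower in endothelial-like cells, and 2 of 7 were higher and 0 lower in fibroblast-like cells. The shares over all genes tested were 12.1% higher and 6.26% lower in endothelial-like cells, and 18% and 7.55% in fibroblast-like cells. The higher one in endothelial-like cells was Tead2, with 17.6 CPM in KI and 12.4 CPM in WT (0.51 [0.24, 0.77]), and the lower one Vgll3, with 8 KI and 14 WT UMIs at free-RNA level. Tead2 was also higher in fibroblast-like cells, with 12.6 CPM in KI and 6.89 CPM in WT (0.88 [0.20, 1.58]). Tead1 was not past 0.5 in either class: it had 43.3 CPM in KI and 56.4 CPM in WT endothelial-like cells (−0.38 [−0.52, −0.24]) and 330 CPM in KI and 368 CPM in WT fibroblast-like cells (−0.16 [−0.27, −0.05]). Vgll4, which competes with YAP for TEAD, was 0.61 [0.31, 0.92] in fibroblast-like and 1.27 [0.42, 2.19] in smooth muscle-like cells, with 73.4 CPM in KI and 30.5 CPM in WT smooth muscle-like cells. It was 0.55 [0.29, 0.81] in type 2 alveolar-like cells, with 47.1 CPM in KI and 32.3 CPM in WT.

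The 22 genes of a YAP and TAZ target signature, which includes Cyr61, Ctgf and Lats2, had members past 0.5 in both directions in 5 of the 6 classes, all but endothelial-like cells. In fibroblast-like cells 2 of 20 measured genes were higher and 4 lower, with a median of −0.14, while the median of all genes was 0.09. Of all genes tested there, 18% were higher and 7.55% lower. The lower ones included the growth-arrest gene Gadd45a (40.1 CPM in KI, 103 CPM in WT, −1.37 [−1.63, −1.11]) and Fjx1 (10.0 CPM in KI, 18.5 CPM in WT, −0.89 [−1.47, −0.33]), and the higher ones Ccdc80 (177 CPM in KI, 78.9 CPM in WT, 1.17 [0.98, 1.36]). Amotl2 (−0.17 [−0.39, 0.05]) and Axl (0.20 [0.00, 0.40]) were closer to 0.

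In type 1 alveolar-like cells 5 of 19 target genes were higher and 7 lower, with a median of −0.47 (all genes: 0.07). Ankrd1 had 82.5 CPM in KI and 150 CPM in WT (−0.86 [−1.21, −0.53]), Amotl2 had 202 CPM in KI and 308 CPM in WT (−0.61 [−0.83, −0.39]) and Nuak2 had 20.8 CPM in KI and 49.7 CPM in WT (−1.25 [−1.96, −0.60]). Crim1 was higher (69.2 CPM in KI, 18.3 CPM in WT, 1.92 [1.32, 2.56]). Pericyte-like cells held 1098 CPM of Crim1 in KI and 1316 CPM in WT, so the WT level in type 1 alveolar-like cells was a free-RNA level. Endothelial, fibroblast and type 2 alveolar markers were also higher in KI type 1 alveolar-like cells, and their part was not tested. In endothelial-like cells 6 of 20 were higher and 0 lower past 0.5, with a median of 0.22 (all genes: 0.06), led by Gadd45a (57.4 CPM in KI, 26.5 CPM in WT, 1.12 [0.95, 1.28]) and Nuak2 (0.71 [0.52, 0.89]). Of those 6, Ccdc80 and Nt5e were at free-RNA level, as were Axl, F3, Igfbp3, Fjx1, Arhgef17 and Rbms3 among the genes behind the median. In pericyte-like cells 3 of 17 were higher and 3 lower, with Amotl2 at 0.55 [0.07, 1.05]. In smooth muscle-like cells 2 of 18 were higher and 5 lower, with the tissue factor gene F3 at 1.19 [0.92, 1.48] and Tgfb2 at −0.85 [−1.29, −0.42]. Of all genes tested, 21.3% were higher and 10.5% lower in type 1 alveolar-like cells, and 12.1% and 6.26% in endothelial-like cells. The shares were 12.8% and 10.9% in pericyte-like cells, and 20.3% and 10.5% in smooth muscle-like cells. The lists were chosen with results of these data known, so their counts describe the libraries only.

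**Figure D5:**
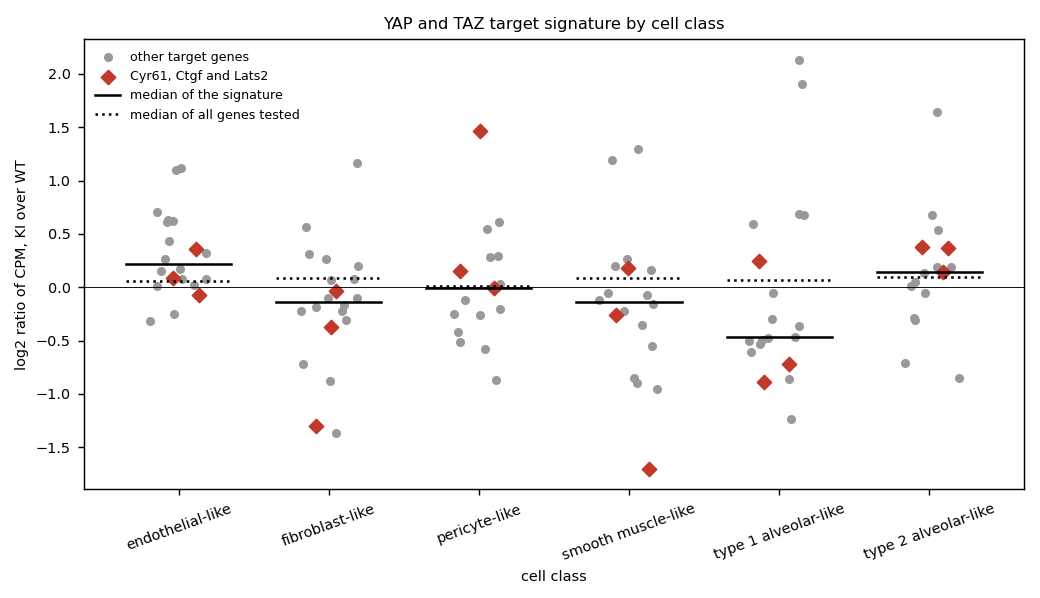
Log2 ratio of CPM, KI over WT, of the measured genes of a YAP and TAZ target signature in 6 classes (0.5 UMIs added); each point is a gene, diamonds are Cyr61, Ctgf and Lats2, solid lines the median of the signature and dotted lines that of all genes tested. The median was −0.47 in type 1 alveolar-like cells and 0.22 in endothelial-like cells.

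Of 13 genes for CCN receptors, 2 of 10 measured were lower in fibroblast-like cells and 0 higher, beside 7.55% lower and 18% higher over all genes tested there. These were syndecan-4 (Sdc4, 743 CPM in KI, 1319 CPM in WT, −0.83 [−0.89, −0.76]) and the fibronectin receptor subunit Itga5 (46.0 CPM in KI, 79.8 CPM in WT, −0.79 [−1.06, −0.53]). Itga5 was higher in KI endothelial-like cells (45.7 CPM, against 32.0 CPM in WT, 0.51 [0.35, 0.68]), as was Itgb3 (9.99 CPM in KI, 4.88 CPM in WT, 1.03 [0.64, 1.44]). These 2 were the only ones past 0.5 of 11 measured in endothelial-like cells, where 12.1% of all genes were higher and 6.26% lower. In type 1 alveolar-like cells 4 of 10 were higher and 2 lower, beside 21.3% and 10.5% of all genes. The higher ones were Lrp1 (2.21 [1.52, 2.96]), Itga6 (2.13 [1.38, 2.94]), Notch1 (2.09 [1.45, 2.78]) and Lrp6 (0.68 [0.26, 1.09]), and the lower ones Sdc4 (−1.05 [−1.24, −0.86]) and Itgb3 (−1.67 [−2.40, −0.99]). Endothelial, fibroblast and type 2 alveolar markers were also higher in KI in that class, as given above, and their part in these ratios was not tested. In smooth muscle-like cells 2 of 9 were higher and 2 lower, beside 20.3% and 10.5% of all genes. Itga6 (2.04 [0.62, 3.78], from 25 KI and 5 WT UMIs) and Itgav (0.64 [−0.15, 1.48]) were higher, and Itga5 (−1.32 [−1.86, −0.79]) and Sdc4 (−0.51 [−0.69, −0.33]) lower.

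The genes whose levels followed a member most closely over 14 sums (7 classes by 2 libraries) were named by Pearson's r of log2(CPM + 1) among 10156 genes. The points share libraries and depths, so r is a description. Fam20c (0.93) was nearest to Cyr61, Tm9sf3 (0.93) to Ctgf, S100a4 (0.96) to Nov, Alpk1 (0.95) to Wisp1 and Gria1 (0.98) to Wisp2. Iigp1 (0.95) was nearest to Stk3, Arid1a (0.90) to Stk4, Leng8 (0.97) to Lats2, Fign (0.89) to Yap1 and Prpf3 (0.94) to Wwtr1. Among the members themselves the highest r was that of Ctgf with Lats2 (0.70) and the lowest that of Nov with Stk4 (−0.51).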

How the data were processed

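Per the labels' protocols, lungs were digested, stained for viability and CD45.2, sorted and put through 10x Chromium 3′ V3. For either library the authors deposited 1 matrix of raw UMI counts, which the authors' software wrote; no barcode had fewer than 500 UMIs. Per the submitters' processing notes, Cell Ranger 2.0, Seurat 2.3.4, R 3.5.3 and mm10 were used, and per the file headers the matrix software was version 3.0.2. The gene tables and barcode lists carry names only. Gene positions come from GENCODE M21 (GRCm38).

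Barcodes with under 200 genes (142 KI, 92 WT) or over 10% mitochondrial UMIs (1921 KI, 2055 WT) were left out. Scrublet in scanpy 1.11.5 marked 0 doublets at its automatic threshold, so the expected rate of 0.8% per 1000 barcodes was used in its place (665 KI, 877 WT barcodes). Kept cells were clustered together (2000 variable genes without the members, the gene lists and sex-linked genes; 30 components; 15 neighbours; Leiden resolution 1). A cluster took the class of its best-scoring markers and stayed unnamed with under 3 detected markers or with another class's markers over 10 times its own; these 2 limits were set after cluster markers, but not member values, had been seen. Clusters 12, 14 (led by Ccdc153, Tmem212 and Areg) and 26 stayed unnamed.

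UMIs were summed per class and library. Levels have exact Poisson, shares exact Clopper-Pearson and ratios exact conditional binomial intervals (scipy 1.17.1). A member or gene was measured with at least 20 UMIs over both libraries and counted past a log2 ratio of 0.5 with 0.5 UMIs added. With 1 library per genotype no test was run. On simulated counts the ratio step was tested before use. Members and lists were chosen with earlier results of these data known. Named genes are the members, up to 3 list genes in each direction with at least 50 UMIs, a few further list genes (Sav1, Lats1, Tead1, Amotl2, Axl, Lrp6, Itga6, Nt5e, Vgll3, and target genes at free-RNA level) named after their values were seen, and the gene nearest to each member. Alternatives changed the filters, doublets, clustering, averaging, scaling, minimum and threshold.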

Additional observations from a re-analysis of the deposited data

Results flagged for a closer look

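Ctgf differed in direction between the mural classes: its log2 ratio of KI over WT was 1.47 in pericyte-like cells and −1.70 in smooth muscle-like cells, and the difference was not tested. Wisp2 was 0.83 in smooth muscle-like cells, where few cells held most of its UMIs, and −1.44 in fibroblast-like cells, also untested. Within the endothelium Ctgf was 0.89 in venous-like and −0.55 in general capillary-like cells, again untested. In barcodes that the filters had left out, which enter no comparison between classes, Stk4 stood at a ratio of 0.75.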

How the results depend on the processing

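No paired analysis was possible because each genotype has 1 library. Of 25 member ratios past 0.5 whose interval leaves out 0, 24 kept their sign in every alternative that could be run and 16 stayed past 0.5 in all. The exception in sign was Ctgf in adventitial-like cells. Of 1042 alternative values, 956 lay within the main counting interval, 71 outside it with the same sign or below 0.5, and 15 changed the sign of a ratio past 0.5. The counts of members past 0.5 moved as follows. With a minimum of 100 UMIs they were 1 in endothelial-like, 1 in smooth muscle-like and 0 in type 2 alveolar-like cells. With a threshold of 0.3 they were 5 in each of the endothelial-like, pericyte-like and type 2 alveolar-like classes. In type 1 alveolar-like cells the count was 1 under the stricter filter and 1 without the 25% of cells richest in other markers. In type 2 alveolar-like cells it was 2 with doublets kept, 3 with the mean of per-cell CPM, and 0 with each library clustered alone, without the 25% of cells richest in other markers and without cells holding haemoglobin RNA. The fibroblast-like count did not move past 1.5 times.

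Sign changes were these. Wisp1 in endothelial-like cells was 0.94 without the 25% of cells richest in other markers, Nov in type 2 alveolar-like cells −0.69 without cells holding haemoglobin RNA, and Stk3 in arterial-like cells 0.23 with each library alone. In adventitial-like cells Ctgf was −0.039 with doublets kept, −0.087 under the stricter filter, −0.40 at resolution 0.5, −0.43 at resolution 2 and −1.18 with each library alone. There Nov was 0.15 (stricter filter), 0.015 (resolution 0.5), 0.0095 (resolution 2) and 0.024 (each library alone), and Stk4 was 0.55, 0.38 and 0.55 at resolution 0.5, at resolution 2 and with each library alone. The name then covered 431, 437 and 413 KI cells, against 175. The cause was not tested. Equal cluster weights could not be applied to pericyte-like and smooth muscle-like cells, which are 1 cluster each, nor to type 2 alveolar-like cells, where a cluster has under 10 WT cells. The 2 alternatives on other cells' markers and on haemoglobin were chosen after seeing the data. Depth limits ratios that rest on few UMIs, such as Wisp1 in endothelial-like cells (8 KI and 13 WT UMIs) and Nov in type 2 alveolar-like cells (18 KI and 7 WT UMIs).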

Other observations

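In endothelial-like cells 6 of 16 immediate-early genes were higher in KI and 1 lower, with a median log2 ratio of 0.43 (all genes: 0.06). Over all genes tested in that class 12.1% were higher and 6.26% lower. Egr1 had 326 CPM in KI and 210 CPM in WT (0.63 [0.57, 0.69]), Zfp36 422 CPM in KI and 271 CPM in WT (0.64 [0.58, 0.69]), and Klf6 551 CPM in KI and 842 CPM in WT (−0.61 [−0.65, −0.58]). In fibroblast-like cells 1 of 16 was higher and 2 lower, with a median of −0.03, beside 18% higher and 7.55% lower over all genes tested. There 4 of 13 genes of the serum response factor list were lower and 2 higher, among them Srf itself (16.9 CPM in KI, 36.6 CPM in WT, −1.11 [−1.54, −0.70]) and Zyx (237 CPM in KI, 364 CPM in WT, −0.62 [−0.74, −0.50]). Tagln, among the lower, and Myl9, among the higher, were at free-RNA level in both libraries. Another of the lower genes had only 7 KI and 15 WT UMIs. Of 10 TGF-beta response genes 3 were higher and 1 lower in fibroblast-like cells, with Tgfbi at 71.8 CPM in KI and 30.9 CPM in WT (1.22 [0.91, 1.52]) and Pmepa1 at 293 CPM in KI and 446 CPM in WT (−0.60 [−0.71, −0.50]). Ltbp2, among the higher, was at free-RNA level in both libraries. In type 1 alveolar-like cells 6 of 9 TGF-beta response genes were higher (21.3% of all genes tested), among them Col1a1 (70.0 CPM in KI, 5.14 CPM in WT), beside the higher fibroblast markers already given for that class.

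Hhip stromal-like cells (55 KI, 62 WT) were too few to compare. They had 11 Ctgf UMIs (51.1 CPM) in KI and 62 UMIs (337 CPM) in WT, and 91 Cyr61 UMIs (423 CPM) in KI and 117 UMIs (637 CPM) in WT. Beside the 1129 CPM of KI type 1 alveolar-like cells, the KI Ctgf level was a free-RNA level.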
